A study of Mus musculus with 6 samples.

Results

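The red blood cell miRNAs miR-451, miR-144 and miR-486 were followed through 6 small RNA libraries of cells labelled Mes23.5, a dopaminergic hybrid of mouse neuroblastoma and rat midbrain cells. The members were taken by name, with any arm and any isoform suffix, which gave 5 features (a feature is 1 name with 1 sequence) of 756 in the deposited table. They hold 4 distinct sequences: miR-451-5p, miR-144-3p, miR-144-5p, and 1 miR-486 sequence that stands under 2 names. All 5 features were above 0 in every library and passed the filter on low counts.

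The study compared cells given extracellular vesicles from SIX2-overexpressing microglia (SIX2_EV, 3 libraries; SIX2 is a transcription factor) with cells given vesicles of control microglia (control_EV, 3 libraries). Every library also had 24 h of LPS, a component of the bacterial cell wall, so none lacks LPS or vesicles. The cell is named here as in the sample labels, although the growth protocol speaks of the microglial line BV2. Separate cultures are not stated for the replicates, and p-values therefore cover only the spread among these libraries, which may be technical.

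Red blood cells lose their nucleus and keep a small set of very abundant miRNAs. miR-144 and miR-451 are made from 1 primary transcript that the erythroid factor GATA1 switches on, and the hairpin of miR-451 is too short for Dicer and is cut by Argonaute 2 and then trimmed at its 3′ end. miR-486 comes from an intron of Ank1, which encodes the red cell skeleton protein ankyrin, and is also a miRNA of striated muscle. miR-451 is known to repress Ywhaz, which encodes the adaptor protein 14-3-3 zeta, and miR-144 is known to repress Nrf2, a regulator of the antioxidant response.

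The deposited reads of the mir-144 and mir-451 hairpins are shown with their RefSeq counterparts (GRCm38.p6), because the first base of a read decides its seed, bases 2 to 8, which pair with target mRNAs. Seeds are in capitals, and T in a deposited read stands for U in RNA.
miR-451-5p, deposited read: aAACCGTTaccattactgagttt
mmu-miR-451a, RefSeq: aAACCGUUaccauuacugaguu
miR-144-3p, deposited read: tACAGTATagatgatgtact
mmu-miR-144-3p, RefSeq: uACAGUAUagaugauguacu
miR-144-5p, deposited read: tGGGATATcatcatatactgt
mmu-miR-144-5p, RefSeq: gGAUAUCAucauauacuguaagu
The miR-451-5p read had 23 bases against 22 annotated, with the same seed AACCGTT and 1 more base at the 3′ end. The miR-144-3p read had the annotated ends. The miR-144-5p read began 2 bases before the annotated start and ended 4 bases before the annotated end, so its seed was GGGATAT in place of GAUAUCA. The miR-486 read had 23 bases, and its first 22 matched both deposited mir-486 hairpins while its last base matched neither. Among the other features no sequence shared the seed of a member, but 3 shared bases 2 to 7 with miR-144-3p, namely those named miR-101a-3p, miR-101b-3p and miR-101c.

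The RefSeq hairpins show where the reads lie, with the deposited reads in capitals.
Mir451a hairpin: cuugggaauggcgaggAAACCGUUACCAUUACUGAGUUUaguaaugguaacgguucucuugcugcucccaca
Mir144 hairpin: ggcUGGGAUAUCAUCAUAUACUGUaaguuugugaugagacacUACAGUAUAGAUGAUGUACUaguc
The miR-451 read covered bases 17 to 39 of a hairpin of 72 bases. The miR-144 reads covered bases 4 to 24 and 43 to 62 of 66, that is, both arms. In GRCm38.p6, Mir144 lies on the plus strand at chr11:78073005-78073070 and Mir451a at chr11:78073170-78073241, with 99 bases between them and only miRNA genes over either in GENCODE M21. Mir451b is annotated on the minus strand of the Mir451a interval. The deposited positions, in a build that is not named, are chr11:77963824-77963920 for mir-144 and chr11:77963996-77964069 for mir-451, with 75 bases between these wider hairpins. Mir486 lies at chr8:23142555-23142682 in GRCm38.p6, within an intron of Ank1, and a second annotated hairpin, Mir3107, overlaps it on the minus strand. The deposited table placed the first miR-486 name, cgr-miR-486-5p_R+1, at chr8:23632571-23632698 on the plus strand and the second, rno-miR-486_R+1, at chr8:23632589-23632678 on the minus strand, and gave each name the same reads, such as 119.5 each in the first SIX2_EV library. Reads of these overlapping hairpins could not be told apart, so the reads of both names are added below.

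By exact match, miR-451-5p and the miR-144 reads each occurred in transcripts of 1 mouse gene in GENCODE M21, Mir451a and Mir144. This does not fix the species. The table's own list of matching hairpins named 15 species for mir-451 and 20 for mir-144, with mouse, rat, human and cattle in both lists, and 9 and 5 species for the miR-486 names. Which species' RNA gave the reads was not tested, and RNA of the cells, of the added vesicles and of the medium cannot be told apart.

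Deposited reads numbered 179621 to 232635 in SIX2_EV, against 253037 to 421279 in control_EV. Reads under mature miRNA names made up 25.5% to 37.8% of them in SIX2_EV, against 37.2% to 73.4% in control_EV. Where the hairpin list of the mature name also had to include a mouse hairpin, the shares were 6.78% to 32.6% in SIX2_EV, against 31.5% to 70.8% in control_EV. Replicate 3 differed from the others in both groups, with 7.94% of reads in SIX2_EV replicate 3 and 7.47% in control_EV replicate 3 under names of the mir-1285 hairpin, against at most 0.447% in any other library. Levels are given as CPM, counts relative to library size after TMM scaling, which lines libraries up on the trimmed mean of their log ratios. The TMM factors were 0.590, 0.309 and 1.20 in SIX2_EV, against 1.07, 1.59 and 2.67 in control_EV. Scaled library sizes thus ran from 71977 to 221648 in SIX2_EV, against 275622 to 1126840 in control_EV. Under TMM the median log2 fold change of all 319 features tested was -0.30, and member values are read against it.

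miR-451-5p was the most abundant member in every library. It had 1954, 847 and 2496 reads in SIX2_EV, against 5533, 10924 and 6286 reads in control_EV. Scaled, these were 18442, 11768 and 11261 CPM in SIX2_EV, against 20075, 27130 and 5578 CPM in control_EV. The first and second control_EV libraries were the highest and the third control_EV library was the lowest of all 6, so the SIX2_EV libraries lay between the control_EV libraries and the groups overlapped. The means were 13824 ± 4008 CPM in SIX2_EV, against 17594 ± 10988 CPM in control_EV (SD, n = 3 each). The log2 fold change of -0.35 (SE 0.62) did not pass edgeR's quasi-likelihood test, with an adjusted p of 0.857 over all features.

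miR-451-5p ranked 5, 8 and 4 among 491 mature sequences in SIX2_EV, against 3, 3 and 8 in control_EV. Its highest control_EV level was 4.86 times its lowest. The median of this ratio was 1.97 over the 301 tested features above 0 in all control_EV libraries, and 64 of them had a larger ratio than miR-451-5p. Among SIX2_EV libraries its highest level was 1.64 times its lowest.

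miR-144-3p, the arm with the annotated ends, had 160, 105 and 285 reads in SIX2_EV, against 554, 858 and 2041 reads in control_EV. Its levels were 1510, 1459 and 1286 CPM in SIX2_EV, against 2010, 2131 and 1811 CPM in control_EV. Every SIX2_EV library lay below every control_EV library. Groups did not overlap in this direction for 54 of 319 features, or 16.9%. The means were 1418 ± 118 CPM in SIX2_EV, against 1984 ± 161 CPM in control_EV (SD, n = 3 each). The log2 fold change of -0.48 (SE 0.21) did not pass, with an unadjusted p of 0.0592 and an adjusted p of 0.439 by edgeR. Without SIX2_EV replicate 3 the log2 fold change was -0.27, where the median of all features was -0.47.

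miR-144-5p, the read with the shifted start, had 61, 34 and 114 reads in SIX2_EV, against 199, 333 and 633 reads in control_EV. Its levels were 576, 472 and 514 CPM in SIX2_EV, against 722, 827 and 562 CPM in control_EV. The third control_EV library lay below the first SIX2_EV library, so the groups overlapped. The means were 521 ± 52.0 CPM in SIX2_EV, against 704 ± 134 CPM in control_EV (SD, n = 3 each). The log2 fold change was -0.43 (SE 0.30), and edgeR gave an adjusted p of 0.603. The fold change was -0.27 on the log2 scale without SIX2_EV replicate 2, where the median of all features was -0.14. It was likewise -0.27 without SIX2_EV replicate 3, where that median was -0.47.

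The miR-486 sequence had 239, 93 and 547 reads in SIX2_EV, against 322, 955 and 2764 reads in control_EV, added over its names. Its levels were 2256, 1292 and 2468 CPM in SIX2_EV, against 1168, 2372 and 2453 CPM in control_EV. Each group held 1 low library, the second of SIX2_EV and the first of control_EV, and the groups overlapped. The means were 2005 ± 627 CPM in SIX2_EV, against 1998 ± 719 CPM in control_EV (SD, n = 3 each). With rows summed by sequence the log2 fold change was -0.0029 (SE 0.40, adjusted p 0.998 by edgeR), and for each name alone it was 0.0069 (SE 0.41, adjusted p 0.998 by edgeR).

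**Figure D1:**
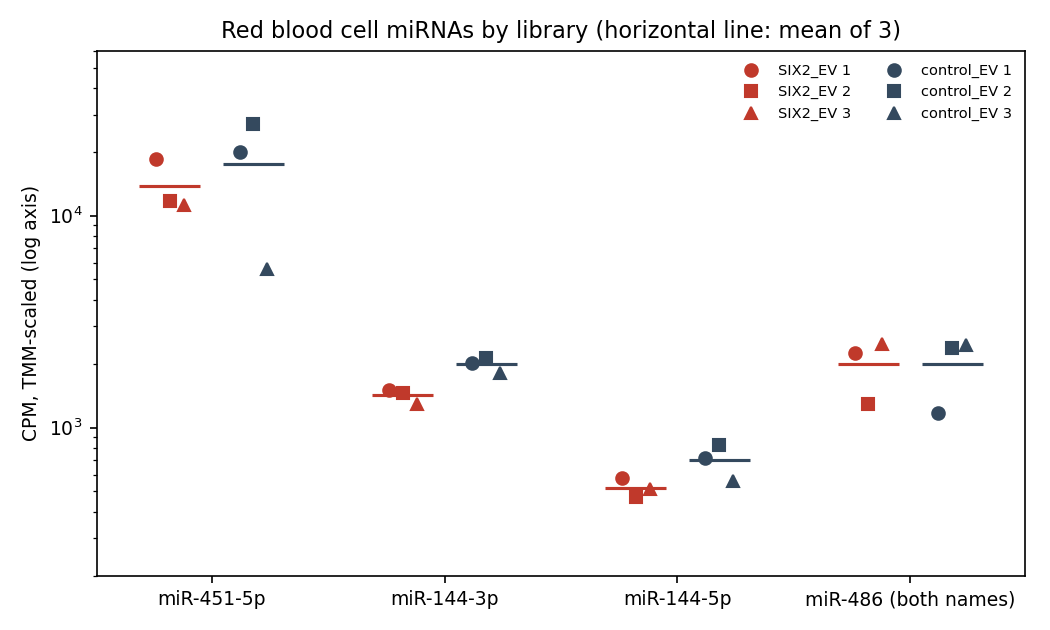
CPM after TMM scaling (log axis) of each red blood cell miRNA in the 3 SIX2_EV libraries (red) and the 3 control_EV libraries (dark grey); the marker shape gives the replicate and the horizontal line the mean of 3. The groups do not overlap for miR-144-3p, at 1286 to 1510 CPM in SIX2_EV, against 1811 to 2131 CPM in control_EV, and overlap for the others.

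So 0 of the 5 member features passed an adjusted p of 0.05, as did 0 of all 319 features (0%) by edgeR's quasi-likelihood test. At an unadjusted p under 0.05 there were 0 members, against 39 features (12.2%). DESeq2 called 20 features (6.27%) and none of the members. Its smallest adjusted p among members was 0.242 for miR-144-3p, with an unadjusted p of 0.0403. In bulk libraries, fewer cells that hold a miRNA and less of it per cell cannot be told apart.

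How far the members lay below the controls depended on what each library was scaled to. With total counts all 4 sequences were negative, with log2 fold changes of -1.50 for miR-451-5p, -1.85 for miR-144-3p, -1.70 for miR-144-5p and -1.30 for each miR-486 name, where the median of all features was itself -1.52. With the library size set to mature names with a mouse hairpin, they were 0.070, -0.14, -0.087 and 0.31 in the same order, where the median was 0.07. This library size was chosen after the data were seen. On that scale miR-144-3p took 0.642%, 0.665% and 0.474% of reads in SIX2_EV, against 0.683%, 0.598% and 0.684% in control_EV, and the groups overlapped. In the authors' normalized signal it had 368.7, 356.9 and 304.5 in SIX2_EV, against 469.4, 485.8 and 462.7 in control_EV, with no overlap. The miR-144-5p groups, which overlapped in CPM, did not overlap in that signal, at 140.6, 115.55 and 121.8 in SIX2_EV, against 168.6, 188.5 and 143.5 in control_EV. In that signal 52 of 319 features (16.3%) did not overlap in this direction.

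**Figure D2:**
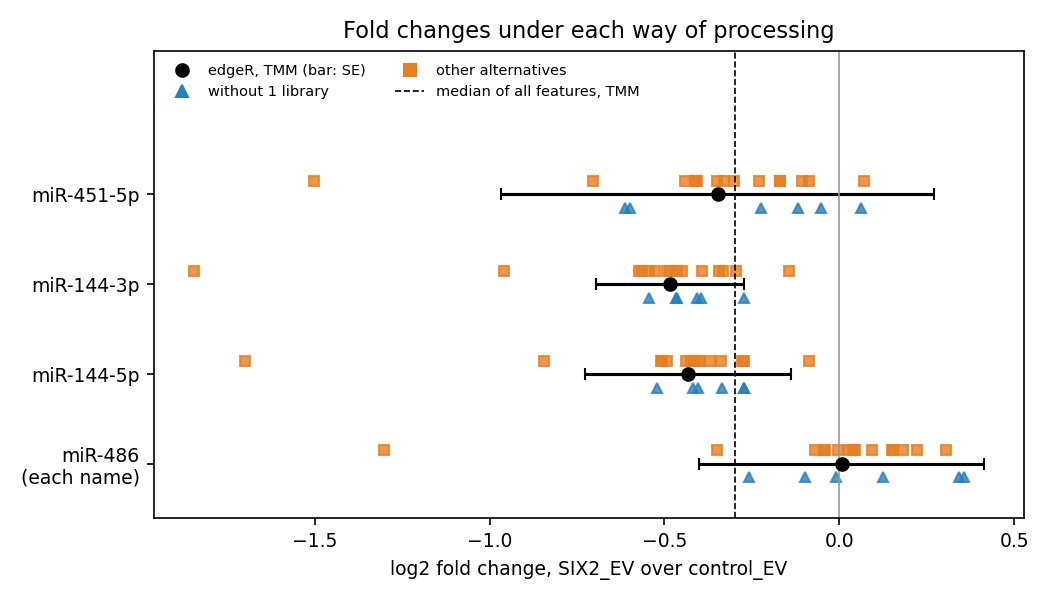
Log2 fold change of SIX2_EV over control_EV for each member: the TMM fit with its SE (black), fits without 1 library (blue) and the other ways of processing (orange), with the median of all features under TMM as a dashed line. miR-144-3p and miR-144-5p stay below 0 in every fit drawn, while miR-451-5p and miR-486 have points on either side of 0. The leftmost square of each row is the fit to total counts. The dashed line holds for the TMM fit only, since the median of all features ran from -1.52 to 0.07 over the fits.

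Ratios of reads within a library do not depend on scaling. The miR-144 arms kept a narrow ratio: miR-144-3p over miR-144-5p was 2.62, 3.09 and 2.50 in SIX2_EV, against 2.78, 2.58 and 3.22 in control_EV. Because of the different ends, this compares an annotated read with a shifted one. On the log2 scale these ratios spanned 0.37 over all 6 libraries.

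miR-451 and miR-144-3p, which share a primary transcript, spanned more. The ratio of miR-451 to miR-144-3p reads was 12.2, 8.07 and 8.76 in SIX2_EV, against 9.99, 12.7 and 3.08 in control_EV, a range of 2.05 on the log2 scale. The third control_EV library was the low one, and the other 5 lay between 8.07 and 12.7. In that library miR-451 made up 53.6% of all member reads, against 72.5% to 83.7% in the other 5.

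The ratio of miR-451 to miR-486 reads was 8.18, 9.11 and 4.56 in SIX2_EV, against 17.2, 11.4 and 2.27 in control_EV. It was lowest in the third library of each group, the same libraries that held most mir-1285 reads, and their part in this was not tested. The range was 2.92 on the log2 scale, the widest of the 7 ratios computed.

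In serum and plasma work, miR-451 is set against miR-23a-3p, which red cells hold little of, as a sign of red cell RNA. miR-23a-3p had 235, 167 and 338 reads in SIX2_EV, against 757, 1198 and 2195.5 in control_EV. The ratio of miR-451 to miR-23a-3p was 8.31, 5.07 and 7.38 in SIX2_EV, against 7.31, 9.12 and 2.86 in control_EV. On the log2 scale the means were 2.76 ± 0.37 in SIX2_EV, against 2.53 ± 0.89 in control_EV (SD, n = 3 each), a difference of 0.24 with a p (exact permutation test, two-sided) of 0.8 (0.8 after Benjamini-Hochberg adjustment over 2 tests). The smallest p that 3 against 3 libraries allow is 0.1. The sign rested on the third control_EV library: without it the difference was -0.27. In replicates 1 and 2 alone it was -0.33, while in the third libraries the ratio was 7.38 in SIX2_EV, against 2.86 in control_EV.

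**Figure D3:**
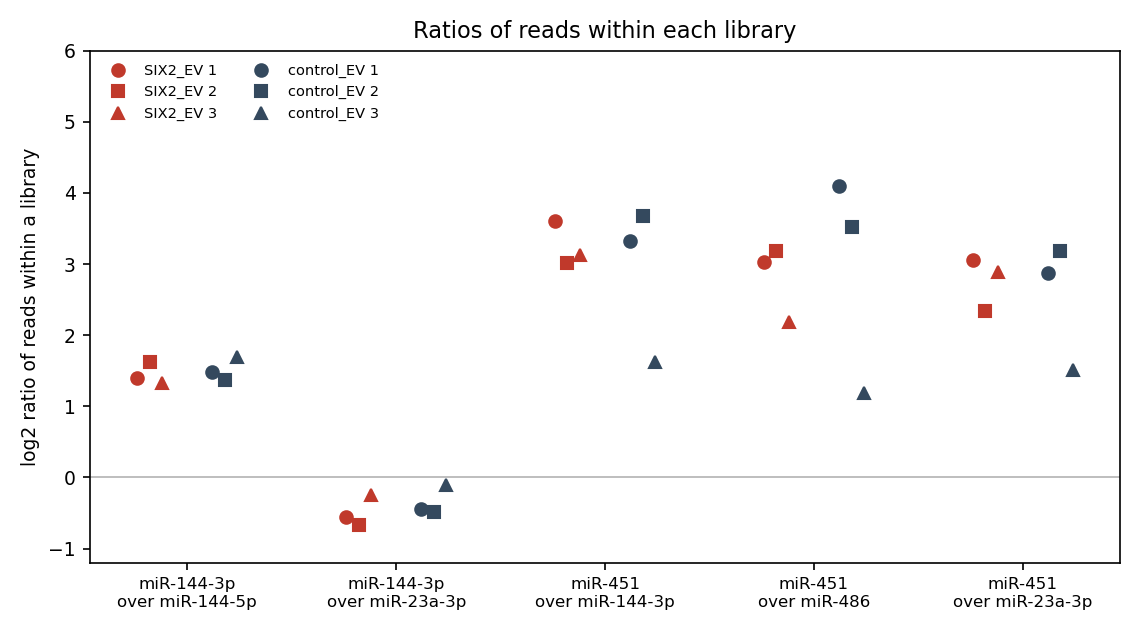
Log2 ratios of reads within each library, which need no scaling, for SIX2_EV (red) and control_EV (dark grey) with the marker shape giving the replicate. The miR-144 arms hold within 0.37, and in every ratio that has miR-451 on top the third control_EV library (dark triangle) is the lowest point.

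The members together took 5.28% of reads under mature miRNA names in the first SIX2_EV library (Wilson 95% interval 5.08 to 5.49), 1.75% in the second (1.65 to 1.85) and 4.94% in the third (4.78 to 5.10). In control_EV they took 6.90% (6.74 to 7.06), 8.64% (8.49 to 8.78) and 3.79% (3.72 to 3.86). The third control_EV library lay within the SIX2_EV range and the groups overlapped. The means were 3.99% ± 1.95 in SIX2_EV, against 6.44% ± 2.46 in control_EV (SD, n = 3 each), a difference of -2.45 percentage points with a p (exact permutation test, two-sided) of 0.3 (0.6 adjusted over 2 tests). It was -1.33 without SIX2_EV replicate 2, -1.36 without control_EV replicate 2 and -3.78 without control_EV replicate 3.

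The mature names include bta-miR-11987, a cattle-named sequence that was the most abundant of them in the first and second SIX2_EV libraries, with 9689 and 17835 reads. Counted only against mature names with a mouse hairpin, the members took 9.68%, 6.84% and 5.72% in SIX2_EV, against 8.14%, 9.11% and 3.93% in control_EV. The difference was then 0.35 percentage points, with SIX2_EV higher and an exact permutation p of 0.9. This denominator was chosen after the data were seen. With mature names given a mouse genome position as denominator, the difference was -2.48 percentage points, with an exact permutation p of 0.3. That denominator kept 45517 of 45730 mature reads in the first SIX2_EV library and 61397 of 61769 in the second. Most bta-miR-11987 reads therefore stayed in it. Against all deposited reads the members took 1.34%, 0.464% and 1.87% in SIX2_EV, against 2.56%, 5.17% and 2.78% in control_EV. The groups did not overlap, with a p of 0.1 by the same exact permutation test. As a percent of deposited reads, 92 of 319 features (28.8%) did not overlap in this direction, and the median log2 fold change of all features with total counts was -1.52.

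**Figure D4:**
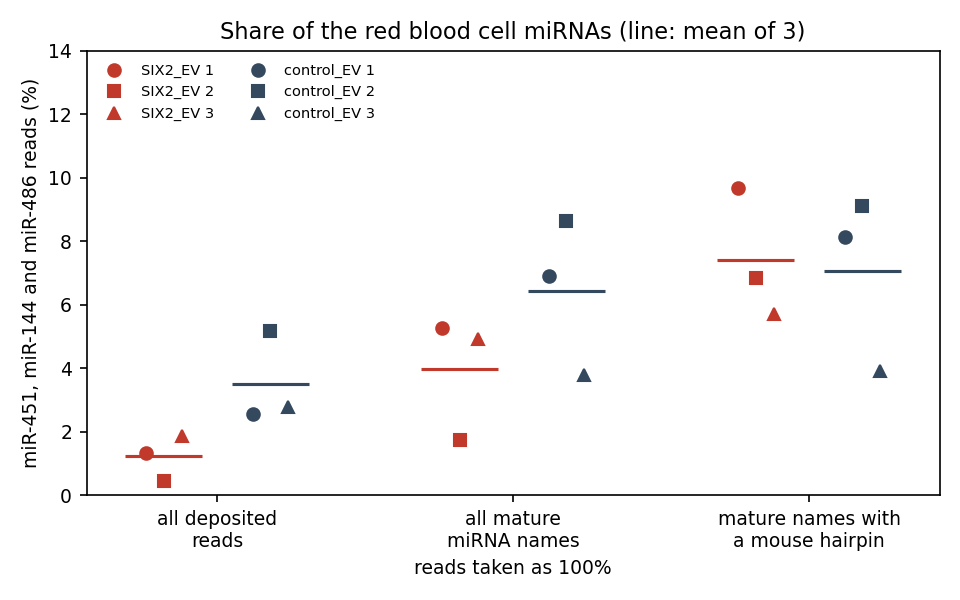
Percent of reads taken by miR-451, miR-144 and miR-486 together when all deposited reads, all mature miRNA names or mature names with a mouse hairpin are taken as 100%; points are libraries and lines means of 3. SIX2_EV (red) lies below control_EV (dark grey) on the left, at 0.464% to 1.87% in SIX2_EV, against 2.56% to 5.17% in control_EV, and the groups overlap in the other columns.

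Other miRNAs that are abundant in red cells, though not specific to them, were taken from a list of 10. All 10 had a deposited name and 9 were tested. None passed by edgeR over all features. In the same test 3 had an unadjusted p under 0.05, against 39 of 319 features (12.2%). These were miR-92a-3p, miR-93-5p and miR-106b-5p, and miR-93-5p and miR-106b-5p come from 1 cluster. All 9 were negative under TMM, against 206 of 319 features (64.6%), with a median log2 fold change of -0.59 where the median of all features was -0.30. The summed level of the list was 13546 to 13827 CPM in SIX2_EV, against 18518 to 22061 CPM in control_EV, with no overlap. Of single features, 54 of 319 (16.9%) did not overlap in this direction. With the library size set to mature names with a mouse hairpin, 7 of 9 were negative. Their median was then -0.23, where the median of all features was 0.07. Without SIX2_EV replicate 2 or 3, 8 of 9 were negative, and in replicates 1 and 2 alone 7 of 9. The list lay above all features without SIX2_EV replicate 3, with medians of -0.35 for the list and -0.47 for all features, and with no filter on low counts, with -0.66 and -1.05.

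The most abundant of these was miR-92a-3p, of the miR-17-92 cluster, at 4005 ± 1096 CPM in SIX2_EV, against 7401 ± 2359 CPM in control_EV (SD, n = 3 each; log2 fold change -0.89, SE 0.35, adjusted p 0.368 by edgeR). The miR-106b-25 cluster lies in an intron of Mcm7 and gives miR-93-5p, miR-106b-5p and miR-25-3p. Their log2 fold changes were -0.59 (SE 0.23), -0.72 (SE 0.26) and -0.41 (SE 0.28). miR-16-5p and miR-15b-5p are family members with a shared seed, and had -0.47 (SE 0.29) and -2.25 (SE 1.13). miR-15b-5p rested on 8, 0 and 26 reads in SIX2_EV, against 65, 140 and 417 in control_EV. miR-107-3p, miR-185-5p and miR-22-3p had -0.997 (SE 0.50), -0.19 (SE 0.31) and -0.16 (SE 0.26), and miR-363-3p was listed with 10 reads in 1 control_EV library and at 0 in the other 5.

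**Figure D5:**
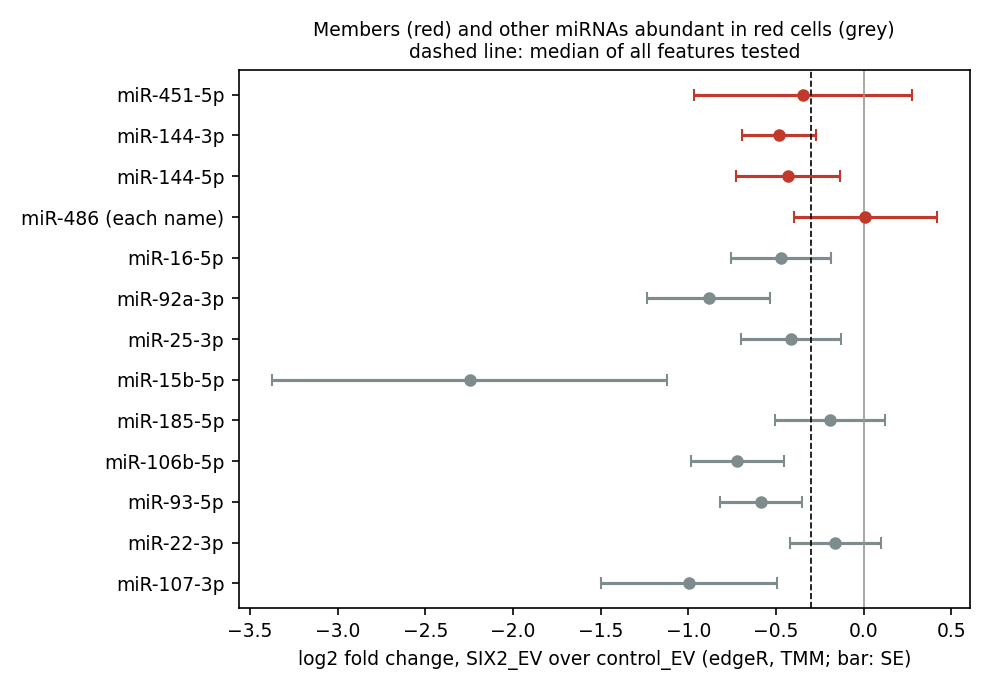
Log2 fold change with SE (edgeR, TMM) of the members (red) and of the 9 tested miRNAs of the red cell list (grey), with the median of all features as a dashed line. None passes an adjusted p of 0.05; the members run from -0.48 to 0.0069 and the list from -2.25 to -0.16.

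The other marker lists were at very different levels. For striated muscle, which also makes miR-486, 2 of 5 markers had a deposited name and none was tested. Their summed level was 0 to 13.5 CPM in SIX2_EV, against 7.10 to 27.3 CPM in control_EV. The floors differed, since 5 reads stood for 22.6 to 69.5 CPM in SIX2_EV, against 4.44 to 18.1 CPM in control_EV. miR-1a-3p had 0, 0 and 3 reads in SIX2_EV, against 2.5, 6.5 and 8 reads in control_EV. miR-499-5p had 0 reads in every SIX2_EV library, against 5, 5 and 0 reads in control_EV. The miR-486 sequence had 93 to 2764 reads a library.

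Platelet and endothelial markers (3 of 3 listed) summed to 821 to 1394 CPM in SIX2_EV, against 943 to 2552 CPM in control_EV, led by miR-126a-3p. Leukocyte markers (5 of 5) summed to 3154 to 5148 CPM in SIX2_EV, against 5094 to 5752 CPM in control_EV, led by miR-142-5p. Liver-derived markers (2 of 2) summed to 125 to 623 CPM in SIX2_EV, against 341 to 462 CPM in control_EV, and most of this was miR-192-5p. The other, miR-122-5p, had 5, 0 and 7 reads in SIX2_EV, against 5, 5 and 44 reads in control_EV, and was not tested. Of the neuronal markers 2 of 5 had a deposited mature name, with sums of 2039 to 2684 CPM in SIX2_EV, against 1834 to 3134 CPM in control_EV. Most of this was miR-7a-5p, with means of 2160 CPM in SIX2_EV, against 2254 CPM in control_EV. miR-128-3p had means of 99.9 CPM in SIX2_EV, against 242 CPM in control_EV. The neuronal markers miR-124-3p, miR-9-5p and miR-218-5p had no deposited mature name. miRNAs that fall as red cells mature (5 of 5), such as miR-221-3p and miR-222-3p, which repress the receptor Kit, summed to 4981 to 5380 CPM in SIX2_EV, against 4973 to 6246 CPM in control_EV. All 3 platelet, 4 leukocyte, 1 liver and 2 neuronal markers tested were negative, as were 3 of the 5 that fall in maturation, with medians of -0.69, -0.81, -0.13, -0.67 and -0.28. Of all features 206 of 319 (64.6%) were negative, with a median of -0.30. The leukocyte values were -0.40 (SE 0.24) for miR-142-5p, -0.67 (SE 0.42) for miR-142-3p, -0.95 (SE 1.13) for miR-150-5p and -1.12 (SE 1.77) for miR-223-3p. In SIX2_EV miR-150-5p rested on 6, 0 and 11 reads and miR-223-3p on 0, 0 and 61 reads. miR-223-3p stands in the platelet, leukocyte and maturation lists. None of them passed by edgeR, and their part in the member values was not tested.

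Which features had a pattern most like each member was described over the 6 libraries by the root mean square difference of log2(CPM + 1), each feature centred on its own mean. Of 189 features compared, the nearest to miR-144-5p were miR-144-3p (0.14), miR-22-3p (0.15) and miR-16-5p (0.16), with a median of 0.57. miR-144-3p had miR-93-5p (0.11), miR-144-5p (0.14) and miR-23a-3p (0.19) nearest, with a median of 0.56. miR-451-5p had no other member among its 3 nearest, which were miR-378a-3p (0.31), miR-301a-3p (0.36) and miR-146a-5p (0.42). From it, miR-144-5p and miR-144-3p came at positions 19 and 37, and miR-486 at position 95, at the median of 0.95. In the orders of miR-144-3p and miR-144-5p, miR-451-5p came at positions 111 and 98. For miR-486 the nearest were the names miR-26a-2 and miR-26a-5p (0.25 each) and miR-10b-5p (0.28), with a median of 0.71 over 188 features. These features share libraries and scaling, and the order is a description.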

How the data were processed

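Small RNA was sequenced from 3 SIX2_EV and 3 control_EV libraries. Per the labels' protocols, the authors made TruSeq small RNA libraries, and their ACGT101-miR program dropped repeats, other RNA families, junk and adapter dimers. Build and mapping were not given in the sources used here. Per library, the deposited table holds estimated counts, split over loci and names, and the authors' normalized signal, per the file headers. That signal is the counts times 1 factor per library, computed here as the ratio of their totals (0.227 to 3.40).

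The 823 rows were summed by name and sequence into 756 features and rounded to whole reads. Of 2410 values above 0 per sequence, 31 were under 5 and 169 equal to 5, so a 0 may hide a few reads, and no limit was drawn from it. Members and lists were chosen with earlier results of these data known. Lists were matched without species prefix or isoform suffix, by the most abundant mature feature. Named were all members, all listed members of the red cell list, the leading marker of every other list and the 3 nearest features by pattern; other features were named after their values were seen. bta-miR-11987, the miR-101 names and mir-1285 are such features.

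The main test was edgeR 4.0.16 (R 4.3.3) quasi-likelihood with TMM, filterByExpr (319 features kept) and Benjamini-Hochberg adjustment at 0.05 over all features. It was also run on simulated counts, with the same spread for all features and larger changes than any member showed under TMM. There it recovered 189 of the 189 changed features tested, with 3 false calls. This does not show its power for changes of the members' size. The 2 permutation tests were exact (scipy 1.17.1). Alternatives used limma 3.58.1 and DESeq2 1.42.0, other scalings, filters, sums and library sets. Wilson intervals at 95% cover counting error only, since reads carry no molecular identifiers. Depth ranged from 179621 to 421279 deposited reads.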

Additional observations from a re-analysis of the deposited data

How the results depend on the processing

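No member passed an adjusted p of 0.05 under any of the 21 alternatives run on it, and adjusted p ranged from 0.242 to 0.9996 over them. Of these alternatives, the library size of mature names with a mouse hairpin was chosen after the data were seen. miR-144-3p and miR-144-5p kept a negative log2 fold change under all 21, from -1.85 to -0.14 and from -1.70 to -0.087. Without each library in turn they ranged from -0.54 to -0.27 and from -0.52 to -0.27. The median of all features was also negative, except with the library size of mature names with a mouse hairpin (0.07). Both lay above that median with no filter (-0.56 and -0.51, median -1.05) and without SIX2_EV replicate 3 (-0.27 each, median -0.47). miR-144-5p also lay above it in the authors' normalized signal (-0.40, median -0.43) and with the replicate block (-0.416, median -0.430). Otherwise both lay below it. miR-451-5p ranged from -1.50 to 0.070 and was positive with the library size of mature names with a mouse hairpin (0.070) and without control_EV replicate 2 (0.063); without each library in turn it ranged from -0.61 to 0.063. Each miR-486 name had 0.0069 under TMM, and turned negative with total counts (-1.30), upper quartile scaling (-0.040), the library size of mature names (-0.35), no filter (-0.069), a filter of 10 CPM in 3 libraries (-0.044), and rows summed by sequence (-0.0029); without each library in turn it ranged from -0.26 to 0.36, negative without SIX2_EV replicate 1 (-0.098), SIX2_EV replicate 3 (-0.0083) or control_EV replicate 1 (-0.26). Over all features edgeR called 0, DESeq2 20 and limma on the authors' normalized signal 5, all 5 lower in SIX2_EV; limma-voom gave 0, though 62 lay under an unadjusted p of 0.05. The ratio of miR-451 to miR-23a-3p turned negative without control_EV replicate 3 (-0.27) and in replicates 1 and 2 alone (-0.33), and ranged from -0.27 to 0.57 without each library in turn. The difference in the share of mature reads was -2.48 percentage points with mature names given a mouse genome position as denominator. It turned to 0.35 percentage points with mature names with a mouse hairpin as denominator, an alternative chosen after the data were seen. Without each library in turn it ranged from -3.78 to -1.33. It moved by over 1.5 times without SIX2_EV replicate 2 (-1.33), control_EV replicate 2 (-1.36) or control_EV replicate 3 (-3.78), and in replicates 1 and 2 alone (-4.26). The causes of these changes were not tested. With the replicate block 0 features passed, and the log2 fold changes were -0.11 for miR-451-5p, -0.48 for miR-144-3p, -0.42 for miR-144-5p and 0.03 for each miR-486 name. Nothing in the labels says that the numbers pair libraries, and the deviations of same-numbered libraries correlated at 0.19, 0.05 and 0.62 for replicates 1, 2 and 3, so the numbers were not taken as pairs. The third libraries correlated best with each other and both held most mir-1285 reads. Counting error was largest for miR-144-5p in the second SIX2_EV library, at 34 reads.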
